A study of Laccaria bicolor with 4 samples.

Results

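The border genes of long silent stretches in the genome of Laccaria bicolor were examined, that is, the transcribed genes that stand next to blocks of untranscribed ones. L. bicolor is a basidiomycete that forms ectomycorrhizae on tree roots. Its genome is rich in transposable elements (TEs), which lie in clusters throughout the chromosomes, and in fungi genes within or close to TEs are often held silent by DNA methylation and heterochromatin. Heterochromatin can spread along a chromosome until it meets a boundary, so that the place where a silent block gives way to active genes is a classical subject of chromatin biology. TE positions and DNA modifications were not used here, and the borders described below are borders of RNA level only.

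The members were chosen by their level in untreated mycelium. Genes were ordered by position, and a gene was called silent when the mean of its 2 untreated libraries was at or below 0.05 TPM, a measure of the share of a transcript in its library that takes gene length into account. A run of at least 10 consecutive silent genes made a long silent stretch. The 5 gene positions next to each side of a stretch were then taken, and those above 0.05 TPM were the border genes. Of 23125 genes, 1380 were border genes (5.97%), which is 9.16% of the 15059 genes expressed in untreated mycelium. A first border gene is the one that touches the stretch, at distance 1. Because untreated TPM made the choice, the untreated levels below are descriptions. The vitamin C libraries were not used by the rule, but they hold the same genes, and no test over genes was made.

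The RNA came from mycelium of the haploid monokaryotic L. bicolor strain S238N-H82, collected after 8 weeks in liquid medium. From it 4 libraries were made after depletion of ribosomal RNA. Of these, 2 came from untreated cultures and 2 from cultures kept with vitamin C (5 mM, 2 days). This reducing agent supports the iron-dependent TET dioxygenases, the enzymes that oxidize 5-methylcytosine. The labels number the libraries of a condition as replicates and do not say whether they came from separate cultures, so p-values measure the spread between these samples, which may be technical. In bulk RNA, fewer cells that transcribe a gene and less RNA per cell cannot be told apart. A TPM of 0.05 stood for a mean read depth of only 0.142, 0.141, 0.176 and 0.138 over the exons of a gene in untreated replicates 1 and 2 and vitamin C replicates 1 and 2. The first border genes had a median depth of 7.29, 8.32, 8.91 and 7.00 in the same order. The files give no read counts, so no counting interval on a level can be given.

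The 223 long silent stretches held 4062 of the 8066 silent genes, with a median length of 15 genes and a longest of 119. There were 34 stretches of exactly 10 genes, and 43 runs of 9 genes fell just short of the rule. Of 446 sides, 14 met the end of a linkage group or scaffold, which left 432 borders, 338 of them on the 10 linkage groups. The 432 borders had 2153 positions within 5 genes, of which 674 were silent and were therefore no members. Of the 1479 expressed positions, 99 repeated a gene already reached from another border. At distance 1 stood 416 genes, since 16 of them lay between 2 long stretches and closed both. Just inside the threshold were first border genes on linkage group 3 from 94625 to 95899, with untreated values of 0.0630 and 0.0483 TPM, and on linkage group 1 from 12006152 to 12009774, at 0.0469 and 0.0668 TPM. Just outside it were the outermost silent genes on linkage group 3 from 2368645 to 2371013, at 0.0466 and 0.0475 TPM, and on linkage group 4 from 1908321 to 1910244, at 0 and 0.0876 TPM.

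Outside the first gene, silent genes soon returned. At distance 2 the gene was silent at 146 of 432 borders (33.8%), at distance 3 at 38.3%, at distance 4 at 41.7% and at distance 5 at 42.9% of the positions. Farther out, with each gene counted once, 46.2% of the genes were silent at distances 6 to 10, 47.2% at 11 to 20 and 44.4% at 21 to 40, against 34.9% of all genes. The border genes thus lay in neighbourhoods that were themselves richer in silent genes than the genome as a whole. The vitamin C libraries gave like shares, with 36.2% and 37.2% of the genes at distance 2 at or below 0.05 TPM and 48.8% and 49.2% at distances 11 to 20.

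The first border genes were the lowest of the border genes in each of the 4 libraries. Their median level was 2.57 and 2.94 TPM without vitamin C and 2.52 and 2.53 TPM with it. At distance 2 the median was 8.39 and 10.0 TPM untreated and 9.93 and 9.55 TPM with vitamin C. The level did not go on rising evenly, since at distance 3 the medians were 5.97, 6.95, 7.16 and 6.59 TPM and at distance 4 they were 7.46, 9.46, 8.11 and 7.36 TPM. At distance 5 they were 12.7, 13.9, 14.5 and 12.6 TPM. The 13679 expressed genes that were no members had medians of 14.7, 17.4, 16.8 and 14.3 TPM. The first border genes lay below these other genes in each library, whereas the order of distances 2 to 4 rested on small differences. All 4 libraries hold the same chosen genes, so their likeness does not measure how far the choice itself set this difference.

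**Figure D1:**
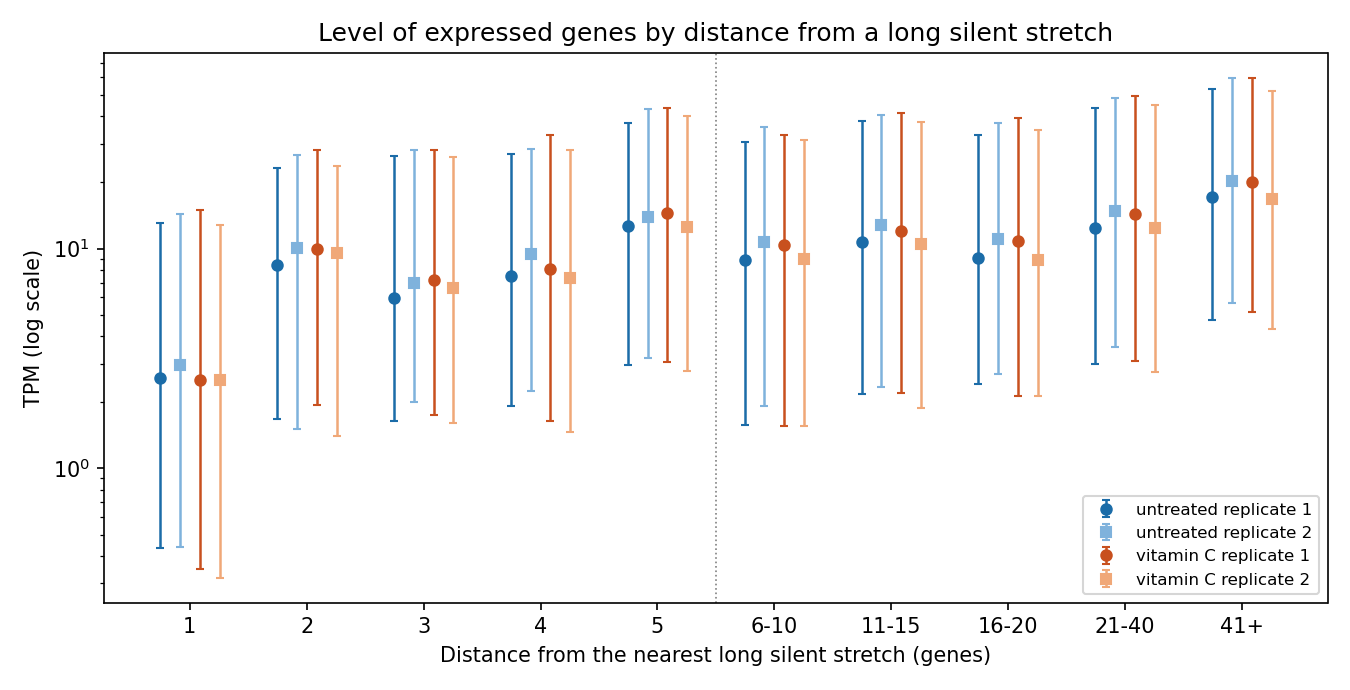
Median TPM (points, log scale) and quartiles (bars) of expressed genes by their distance in genes from the nearest long silent stretch, in each of the 4 libraries. The dotted line separates border genes from genes farther out. The first border genes had medians of 2.52 to 2.94 TPM, and genes at distance 41 or more had medians of 16.9 to 20.3 TPM.

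The spread within a distance was wide. In untreated replicate 1 the middle 50% of the first border genes ran from 0.435 to 13.03 TPM, and in vitamin C replicate 2 from 0.319 to 12.8 TPM. A mean untreated level under 1 TPM was found for 152 of 416 first border genes (36.5%), for 19.3%, 14.4%, 16.2% and 11.7% at distances 2 to 5, and for 11.1% of the other expressed genes. At the upper end, 4.09% of the first border genes reached 100 TPM, against 11.7% at distance 5 and 13.6% of the other expressed genes. Among genes of at least 1 TPM, the first border genes had medians of 8.82, 10.1, 10.0 and 9.41 TPM. These lay close to the 9.17, 10.5, 11.3 and 9.35 TPM of such genes at distance 3 and below the 13.2, 14.3, 15.03 and 13.8 TPM at distance 2. With weak genes left out, the first position was below the third in 3 of the 4 libraries. Those first border genes of at least 1 TPM whose outer neighbour was expressed had lower medians, at 7.68, 8.64, 8.55 and 8.05 TPM. Other expressed genes of at least 1 TPM had medians of 18.7, 22.0, 21.6 and 18.4 TPM. A weak gene inside silent territory cuts a stretch and so becomes a border by the rule, and it then often has a silent gene on its outer side too. The 130 first border genes with a silent gene next to them on the outer side had medians of 1.03, 1.15, 1.17 and 0.855 TPM. The 286 whose outer neighbour was expressed had 3.23, 3.67, 3.05 and 2.79 TPM, still lower than at any other distance. The positions are not matched, since by the rule each first border gene touches a silent gene. Each gene at distance 2 has an expressed inner neighbour instead.

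The level of a gene beside a silent run varied with the length of that run. Expressed genes with expressed genes on both sides had medians of 16.3, 19.2, 18.7 and 15.9 TPM in the 4 libraries. Beside a single silent gene they were 6.69, 7.66, 7.55 and 6.49 TPM. Beside runs of 2 to 4 and 5 to 9 genes the medians were 4.09 and 4.83 TPM in untreated replicate 1 and 3.95 and 4.54 TPM in vitamin C replicate 2, and these 2 classes were not in the same order as their length. Beside runs of 10 to 19 genes they were 3.20, 3.69, 3.10 and 2.83 TPM, and beside runs of 20 or more genes 1.38, 1.83, 1.502 and 1.60 TPM. The 110 first border genes beside the longest class were under 1 TPM in 43.6% of cases. With the genes that had silent neighbours on both sides left out, the 2 longest classes still differed in each library, at 4.04 against 1.52 TPM in untreated replicate 1 and at 4.03 against 2.16 TPM in vitamin C replicate 2.

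**Figure D2:**
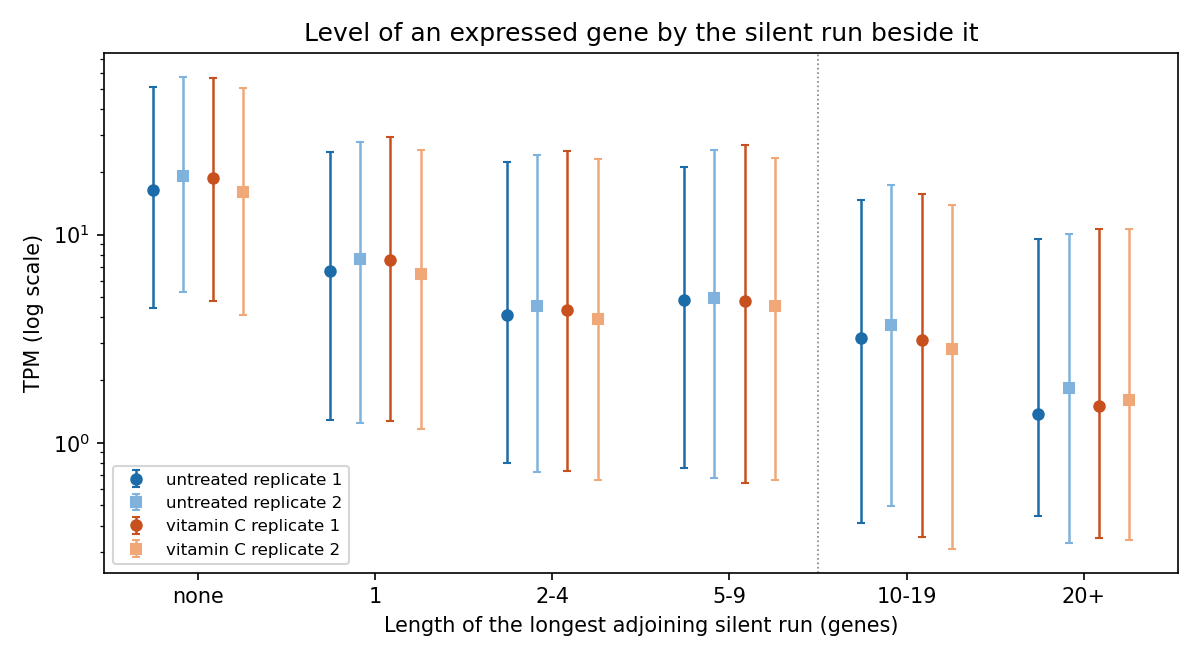
Median TPM (points, log scale) and quartiles (bars) of expressed genes by the length of the longest silent run that touches them, in each of the 4 libraries. Classes right of the dotted line are the first border genes. Medians went from 15.9 to 19.2 TPM with no silent neighbour to 1.38 to 1.83 TPM beside runs of 20 or more genes.

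On the silent side, the outermost gene of a stretch was more often detected than the genes behind it. Of the 432 outermost silent genes, 403 were listed at 0 in all 4 libraries (93.3%), against 97.2% to 97.7% at depths of 2 to 5 genes and 98.0% at 11 genes or more. In the vitamin C libraries, which the rule did not use, 12 and 10 of the outermost genes were above 0.05 TPM (2.78% and 2.31%). At the second gene inward 3 and 1 were above it (0.694% and 0.231%), and at depths of 3 to 5 genes the share was 0.463% to 0.926%. The levels were low, the highest mean of the vitamin C libraries at an outermost gene being 0.280 TPM. Another model overlapped 5.09% of the outermost silent genes and 4.398% of those at the second position, and the part of such overlaps in the detected signal was not tested.

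Single borders differed in shape, as the 5 longest stretches show. The stretch of 119 genes on linkage group 4 ended on its left at a gene from 2294429 to 2295427, which stood at 9.40 and 7.63 TPM without vitamin C and 8.55 and 8.70 TPM with it. Its outer neighbour, from 2292171 to 2293609, stood at 34.4, 25.3, 30.4 and 33.8 TPM, and the 3 genes after that were listed at 0 in every library. The right end of the same stretch was a single gene from 2735194 to 2736019, at 10.2, 11.8, 15.6 and 11.3 TPM, followed by 4 genes at 0 in every library. Silent genes thus returned after 2 genes on the left and 1 gene on the right.

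The stretch of 83 genes on the same linkage group had steeper borders. Its left border gene, from 1906230 to 1907698, stood at 51.5 and 51.4 TPM without vitamin C and 42.3 and 49.7 TPM with it. Next to it a gene from 1904757 to 1905573 stood at 185, 197, 232 and 237 TPM. Behind these, the genes at distances 3 and 4 were at or below 0.374 TPM in each library. On the right side the first gene, from 2222906 to 2226255, stood at 51.3, 48.7, 54.5 and 58.7 TPM, and the second, from 2226746 to 2227836, at 134, 88.2, 98.6 and 120 TPM. The vitamin C values lay below the untreated ones at the left border gene and above them at its neighbour and at the first gene on the right, and none of these differences passed the test given below.

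The next stretches had weaker borders. On linkage group 6 the stretch of 71 genes ended at genes of 4.86, 6.75, 6.92 and 8.12 TPM on the left, from 101117 to 103832, and of 1.52, 2.62, 2.32 and 1.95 TPM on the right, from 421404 to 425789. On linkage group 1 the stretch of 70 genes was closed on its left by a gene of 393 bp, from 9498469 to 9498861, at 0 and 0.255 TPM without vitamin C and 0.776 and 0.302 TPM with it. That border was set by 1 untreated library, and the 4 positions beyond it were at 0 in every library. On its right the levels climbed over 3 genes, from 0.566, 0.642, 0.759 and 0.952 TPM through 5.26, 6.11, 8.27 and 6.73 TPM to 32.6, 27.8, 32.0 and 31.3 TPM. The fifth stretch, of 55 genes on linkage group 1, had the strongest border of these 5 stretches. Its left border gene, from 7939960 to 7942040, stood at 321 and 282 TPM without vitamin C and 379 and 351 TPM with it, and its model overlapped that of the outermost silent gene, which lies on the opposite strand and was listed at 0 throughout.

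**Figure D3:**
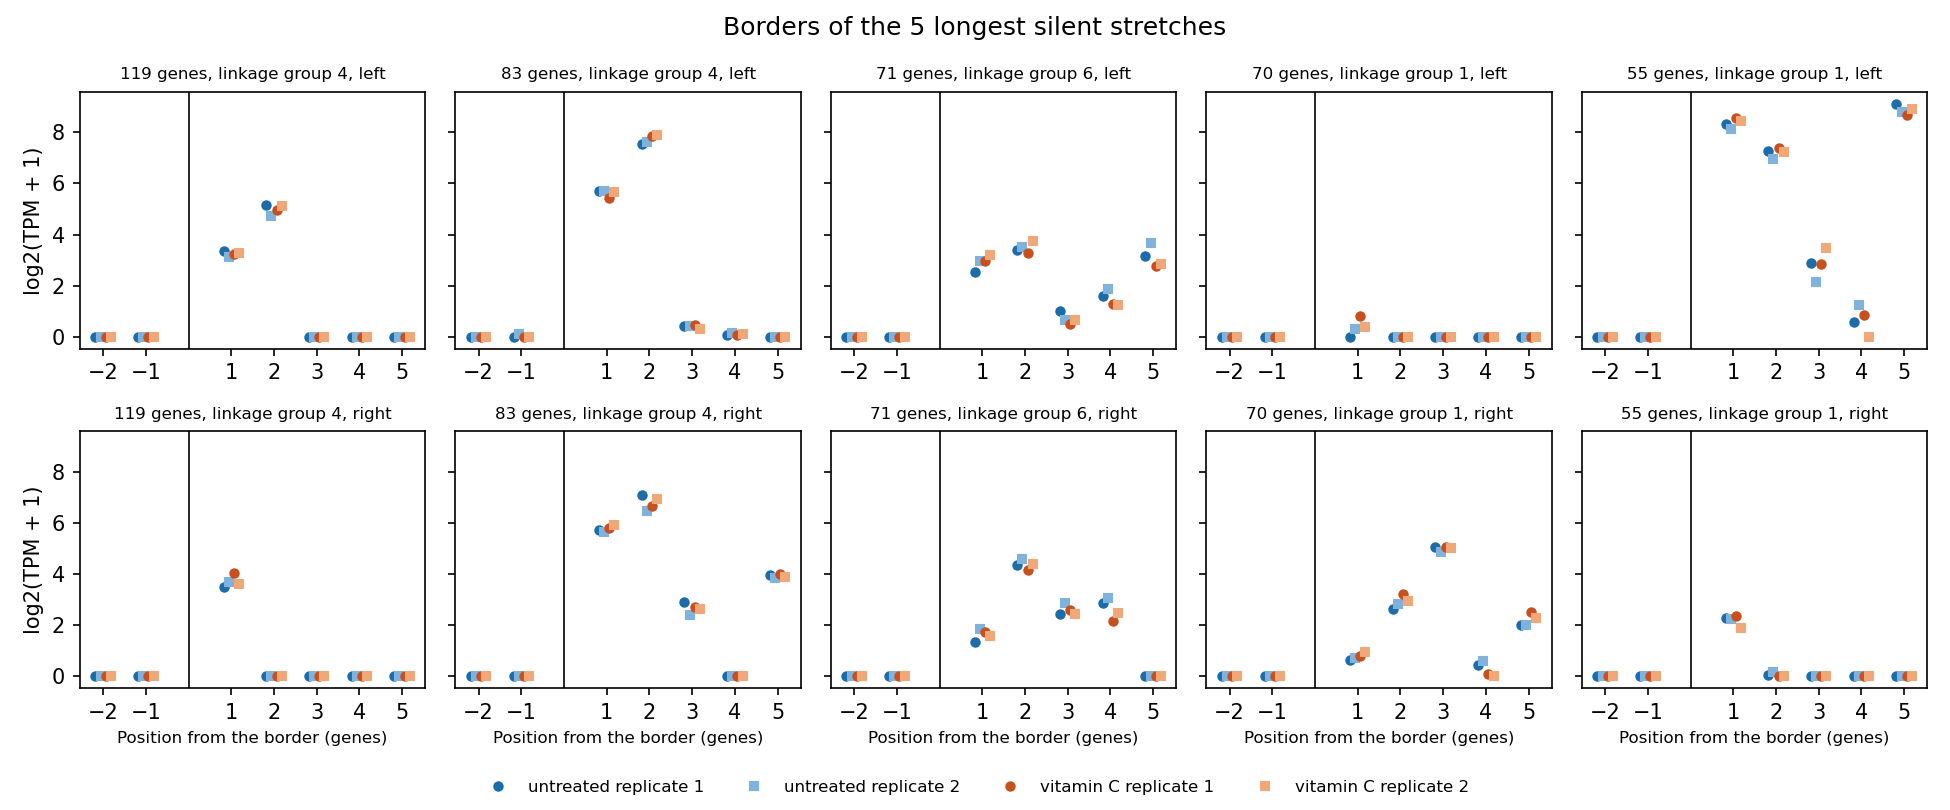
Level of the genes around both borders of the 5 longest silent stretches, as log2(TPM + 1), with 1 point per library. Position counts genes from the border (vertical line), negative inside the stretch, and panels are titled with the length of the stretch and its linkage group. The first gene outside ranged from under 1 to 379 TPM, and silent genes reappeared within 5 positions at 7 of the 10 borders.

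The 5 first border genes of highest mean untreated level were strongly transcribed in all libraries. The highest, on scaffold 11 from 864430 to 865616, stood at 988 and 717 TPM without vitamin C and 804 and 917 TPM with it, next to a stretch of 10 genes. It was followed by a gene on linkage group 7 from 51569 to 53047, at 706, 499, 690 and 784 TPM, which closed a stretch that begins at the end of the linkage group. A gene on linkage group 1 from 3723738 to 3725622 had 403, 421, 548 and 482 TPM, and one on linkage group 9 from 1109965 to 1111473 had 383, 325, 326 and 380 TPM. The fifth was the gene beside the stretch of 55 genes given above. The distance between these genes and their silent neighbours was 1139, 495, 865 and 1100 bp, and -207 bp for the fifth, whose model overlaps its neighbour. Strong transcription thus lay close to genes listed as silent.

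The first genes on the 2 sides of a stretch were compared. Of 209 stretches with a border on each side, 24 had first genes of at least 10 TPM on both, 81 on 1 side and 104 on neither. Such first genes stood at 31.0% of all borders. Both first genes were under 1 TPM at 32 stretches.

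Levels at the border also varied between linkage groups. Linkage group 5, which has the highest share of silent genes among the linkage groups, had 39 borders. Its 96 border genes made up 18.4% of its expressed genes, and its first border genes had medians of 0.638, 0.528, 0.650 and 0.567 TPM in the 4 libraries. Its other expressed genes were low as well, with a median of 5.32 TPM by their untreated means, against 17.7 TPM on linkage group 1 and 19.8 TPM on linkage group 2. On linkage group 1, with 92 borders, the medians were 2.14, 3.54, 2.77 and 2.47 TPM. On linkage group 2 they were 6.73, 11.01, 6.93 and 6.96 TPM, and on linkage group 7 they were 7.91, 5.86, 10.2 and 9.70 TPM, where the other expressed genes had a median of 10.9 TPM by their untreated means.

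The first border gene was read toward the stretch more often than away from it. A gene read away has its start, and so its promoter, on the side of the silent block, and a gene read toward the stretch has its end there. Of 432 borders, 192 had a first gene read away from the stretch (44.4%, Wilson 95% interval 39.8% to 49.2%, which covers counting error only). The share was 47.9% on left sides and 40.9% on right sides, and 42.0% at the 286 borders with an expressed second gene. It was not peculiar to long stretches. Runs of 1 to 9 silent genes had 2827 edges, and the expressed gene was read away from the run at 1271 of them (45.0%). Of the 209 stretches with 2 borders, 64 had both first genes read inward and 40 had both read outward.

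With the outermost silent gene, the first border gene formed a convergent pair at 128 borders (29.6%), a divergent pair at 104 (24.1%) and a pair on the same strand at 200 (46.3%). Among neighbours that were both expressed, 26.0% were convergent and 27.3% divergent, so divergent pairs were slightly the more common there. Among neighbours that were both silent, 22.9% were convergent, 23.5% divergent and 53.5% on the same strand. Over all borders the level differed little with read direction. The first genes read away had medians of 2.80, 3.58, 2.96 and 2.63 TPM and those read toward 2.72, 2.74, 2.52 and 2.67 TPM, and the order was turned in vitamin C replicate 2. Where the second gene was expressed, those read away were the higher in each library, at 3.76, 4.64, 4.12 and 4.403 TPM (n = 120) against 2.96, 3.26, 2.59 and 2.76 TPM (n = 166). The order varied with the border gap. At gaps of 2 kb or more genes read away had 4.47, 5.77, 5.04 and 4.31 TPM (n = 67). Those read toward had 2.89, 3.42, 2.33 and 2.26 TPM (n = 87). At gaps under 500 bp those read away were the lower in each library, at 1.19, 1.10, 0.839 and 0.583 TPM (n = 33). Those read toward had 1.41, 1.48, 1.43 and 1.73 TPM there (n = 51). The libraries hold the same genes and so do not repeat this order independently. Quartiles overlapped widely, at 0.119 and 9.52 TPM (away) and 0.291 and 7.33 TPM (toward) in untreated replicate 1. From 500 bp to 2 kb those read away were the higher only in the untreated libraries. They had 2.22, 2.33, 2.08 and 1.84 TPM (n = 92) against 2.13, 1.75, 2.59 and 2.75 TPM (n = 102).

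Within 5 genes on either side, the border itself was the widest step. Between the first border gene and the outermost silent gene lay a median of 1364 bp (quartiles 606 and 2866 bp, n = 432). The median gap was 361 bp between neighbours that were both expressed and 931 bp between genes inside the long stretches. Going inward from the border, the median gap was 1105, 1046.5, 922 and 886.5 bp at the successive steps, and going outward it was 688, 613, 618 and 665 bp. Gaps beyond 5 kb occurred at 52 borders (12.04%), at 8.44% of the steps inside long stretches and at 0.730% of those between expressed genes. Wide gaps were not limited to long stretches. They had a median of 725 bp beside single silent genes, 1314.5 bp beside runs of 2 to 4 genes and 1431 bp beside runs of 5 to 9 genes. At the borders of stretches of 10 to 19 genes and of 20 or more genes the medians were 1362 and 1366 bp. Gaps beyond 5 kb were less alike there, at 14.7% of the borders of the shorter class (n = 319) and 4.42% of those of the longer class (n = 113). The models of the 2 genes overlapped at 12 borders (2.78%), against 10.9% of expressed neighbours.

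**Figure D4:**
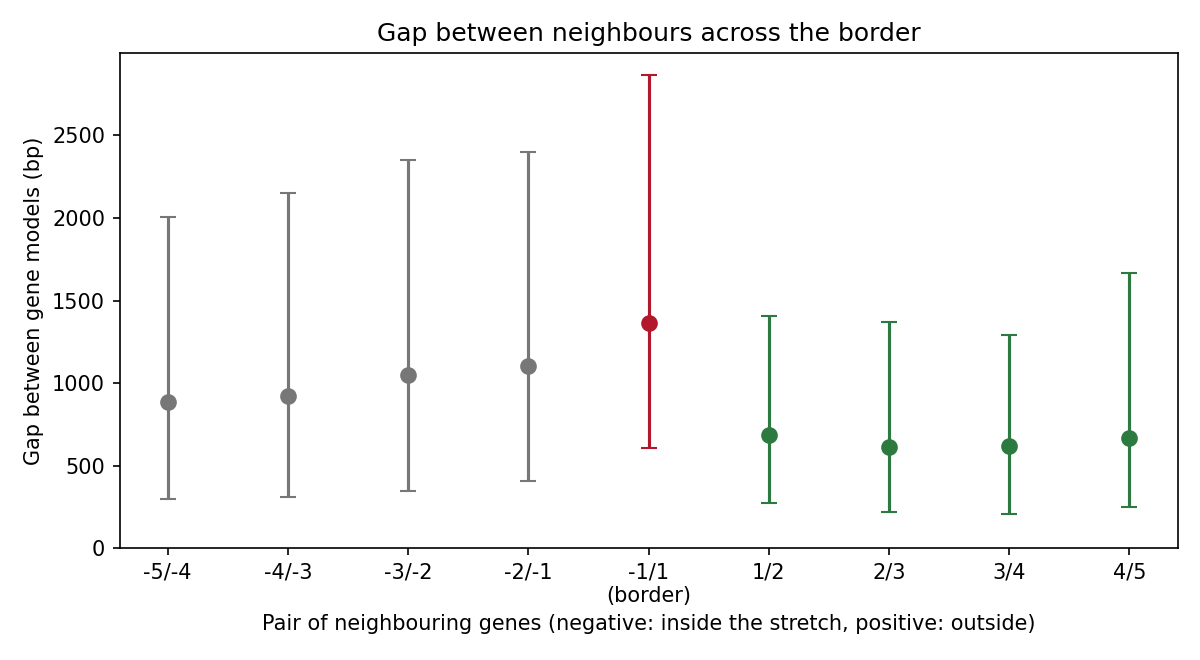
Median gap (points) and quartiles (bars) between neighbouring gene models in bp, from 5 genes inside the stretch (negative positions) to 5 genes outside it. The border step had a median of 1364 bp, the inner steps 886.5 to 1105 bp and the outer steps 613 to 688 bp.

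Gene identifiers are numbered along the genome, and the files skip numbers. A skip fell on 129 of the 432 borders (29.9%), on 18.2% of the steps inside long stretches, on 22.5% of those beside runs of 1 to 9 silent genes and on 9.03% of those between expressed genes. No source used here says what the skipped numbers stand for, and neighbours are neighbours among the listed genes. With only steps between consecutive numbers, the median gap was 1008 bp at 303 borders, 705 bp inside long stretches, 788 bp beside shorter runs and 325.5 bp between expressed genes, in the same order as before. The median border gap was 1184.5 bp at convergent, 1419 bp at divergent and 1401.5 bp at same-strand borders. The level of the first gene was higher across the widest class of gaps than across the narrowest. First genes less than 500 bp from the silent gene had medians of 1.37, 1.10, 1.31 and 1.23 TPM (n = 83) and those at 2 kb or more 3.31, 3.99, 3.19 and 2.89 TPM (n = 152).

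Most borders stood at the same gene in vitamin C-treated mycelium. By the mean of the vitamin C libraries, 387 of 432 untreated borders were unchanged (89.6%, Wilson 95% interval 86.3% to 92.1%, counting error only). At 32 borders the stretch had grown outward and at 13 it had shrunk. When the stretches were set in the vitamin C libraries and looked up in the untreated ones, 384 of 446 borders were unchanged (86.1%), 36 lay farther out and 26 farther in. Single libraries gave the replicate error. When the borders of 1 library were looked up in the other of its condition, 86.4% to 89.9% were unchanged, and between libraries of different conditions 84.1% to 87.6%. The ranges overlapped, and the movement between conditions was not clearly larger than that between replicates. Growth outnumbered shrinkage within conditions too, with 42 against 17 and 39 against 19 between the untreated libraries and 48 against 13 and 25 against 21 between the vitamin C libraries. The whole stretch was identical for 158 of 223 stretches by the means (70.9%), for 65.8% to 71.7% within and for 62.7% to 65.8% between conditions in single libraries.

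**Figure D5:**
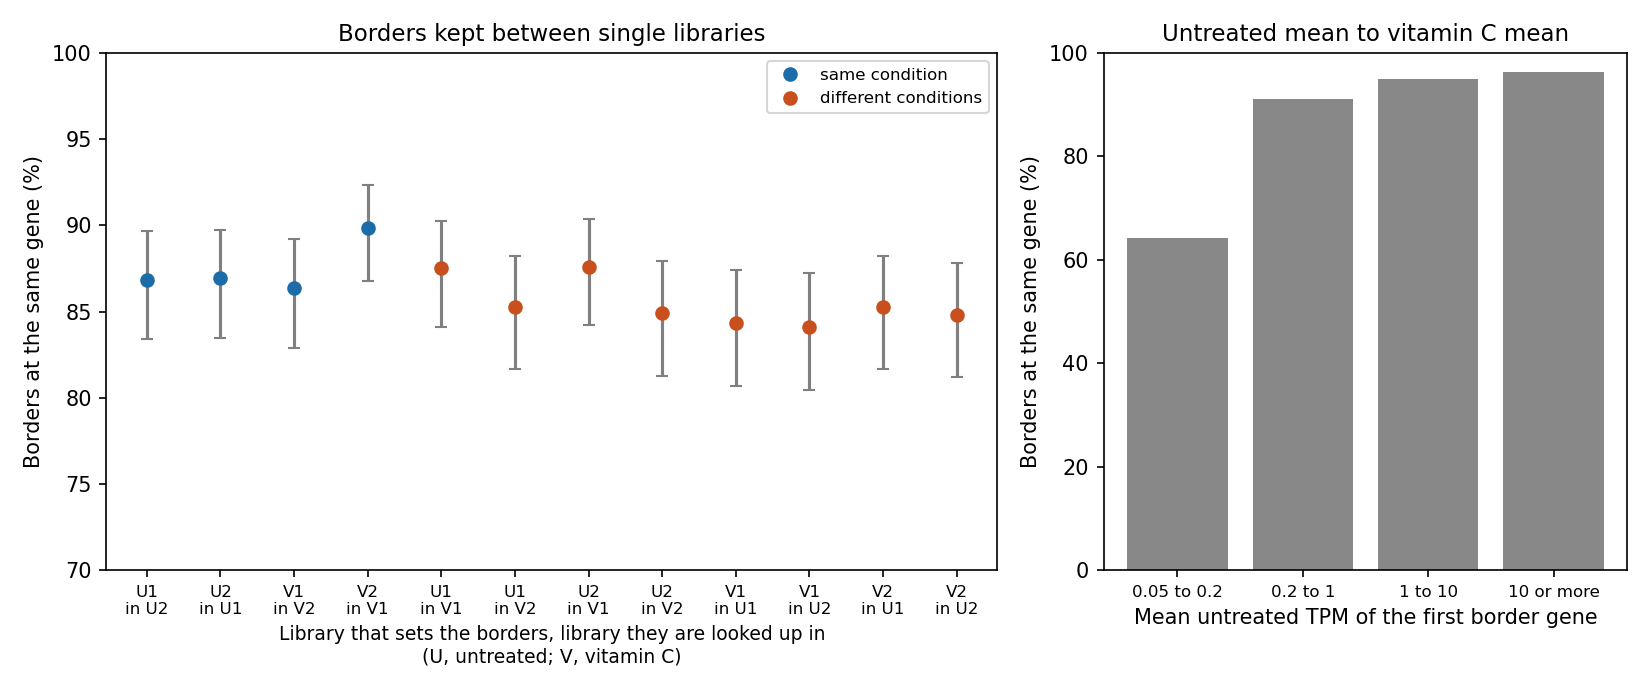
Left, percentage of borders at the same gene when those set in 1 library are looked up in another, with Wilson 95% intervals for counting error, where the axis starts at 70%. Right, the same by the condition means, by the untreated level of the first border gene. Pairs of 1 condition lay at 86.4% to 89.9% and pairs of different conditions at 84.1% to 87.6%, and borders with a first gene of at most 0.2 TPM were kept in 64.3% of cases.

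Whether a border stayed went with the level of its first gene, which follows in part from the rule. A border is kept only when its first gene stays above 0.05 TPM, and a gene close to that threshold crosses it most easily. Of 70 borders whose first gene stood at 0.05 to 0.2 TPM, 45 were unchanged (64.3%). The share was 91.1% for first genes of 0.2 to 1 TPM, 94.9% for those of 1 to 10 TPM and 96.3% for those above 10 TPM. The first genes of the 32 stretches that grew had a median of 0.105 TPM untreated, and 30 of them were under 1 TPM. The 13 that shrank did so by 1 gene each, and the highest mean of the vitamin C libraries at a gene so gained was 0.280 TPM. Taking the vitamin C libraries singly, 26 borders lay farther out in both and 6 farther in in both.

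The largest moves came from single weak genes between stretches. On linkage group 7 a gene of 195 bp from 2443924 to 2444118 stood at 0.133 and 0 TPM without vitamin C and 0 and 0.0612 TPM with it. It separated stretches of 13 and 18 genes, and with its vitamin C mean under the threshold they were joined, which moved the 2 edges by 19 and 14 genes. In vitamin C replicate 2 alone both borders were unchanged. On scaffold 22 a gene from 257519 to 260348 at 0.0913, 0.108, 0.0866 and 0 TPM moved its border by 7 genes. Of the 3 inward moves named by order of position, that of linkage group 1 from 10930055 to 10930681 rested on 0.226 TPM in vitamin C replicate 1 alone, and the gene was listed at 0 in the other 3 libraries. The second, on linkage group 1 from 11260248 to 11262632, crossed the threshold with 0.0645 and 0.0396 TPM, after 0.0259 and 0.0550 TPM untreated. The third, on linkage group 3 from 1488713 to 1489105, rested on 0.105 TPM in vitamin C replicate 2.

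Of the 32 outward moves, 2 involved a first gene of at least 1 TPM, and they are named after their values were seen. On linkage group 2 a gene of 263 bp, from 3424423 to 3424685, was listed at 0 in untreated replicate 1, at 82.8 TPM in untreated replicate 2 and at 0 in both vitamin C libraries. A single library thus made this border, and the neighbouring gene on the opposite strand, from 3424706 to 3425065, stood at 318, 491, 486 and 376 TPM. On linkage group 3 the gene gene_10001, from 4607497 to 4608073, had 2.78 and 1.09 TPM without vitamin C and 0 in both libraries with it. The change did not pass the test (adjusted p = 0.23 from limma with Benjamini-Hochberg adjustment). Its outer neighbour was at 19.02, 18.5, 16.5 and 18.4 TPM. A listed 0 may also be an estimate that failed.

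Few border genes were called different between the conditions. With 2 libraries per condition real differences can be missed, so a gene that was not called is not shown to be unchanged. Genes with a mean over the 4 libraries above 0.05 TPM were compared on log2(TPM + 1) with limma, and 1360 of the 1380 border genes were among them. The other 20 were at or under 0.05 TPM in that mean and were not tested. At an adjusted p under 0.05, 1 border gene was higher and 0 were lower with vitamin C, where 0.0927% of all 15107 genes tested were called in either direction. At an unadjusted p under 0.05 from limma, 67 border genes were higher (4.93%, against 4.98% of all genes tested) and 79 were lower (5.81%, against 8.13%). Among the 403 first border genes tested, 0 were called by limma, and 20 were higher and 23 lower at an unadjusted p under 0.05. The shares of higher border genes were close to the background. The median change of the border genes was 0.01 on the log2(TPM + 1) scale and that of all genes tested -0.02. Both were smaller than the median differences between replicates, since over the border genes untreated replicate 2 lay 0.09 above replicate 1 and vitamin C replicate 2 lay -0.09 from replicate 1.

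The gene that passed, gene_25105, lies on scaffold 16 from 297985 to 300245, at distance 2 from a stretch of 15 genes. It rose from 10.3 and 5.96 TPM untreated to 64.8 and 47.1 TPM with vitamin C, by 2.67 on the log2(TPM + 1) scale (limma, adjusted p = 0.039, standard error 0.29). Its neighbours did not share that size of change. The first border gene, between it and the stretch, stood at 2.89 and 1.48 TPM without vitamin C and 2.49 and 2.79 TPM with it, with overlapping values. At distance 3 a gene stood at 61.1 and 59.2 TPM without vitamin C and 80.6 and 69.4 TPM with it, and at distance 5 one stood at 869, 700, 683 and 803 TPM. The border of the stretch did not move. With any 1 library left out the change was 2.32 to 3.02. A condition with 1 library has no spread of its own, so these fits do not check the call. The call was lost with quantile normalization (limma, adjusted p = 0.10), without the filter (adjusted p = 0.41) and without the trend (adjusted p = 0.096). It held with 0.1 added before the log (limma, adjusted p = 0.045), at a mean of at least 1 TPM (adjusted p = 0.016) and with FPKM (adjusted p = 0.044). It also held with the replicate numbers as a block (limma, adjusted p = 2.7e-07) and with them crossed (adjusted p = 0.019), each with 1 residual degree of freedom. The numbers did not pair the libraries, and the crossing was chosen after seeing the data. The block and crossed fits are therefore no check of the call.

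Of the other border genes with values that did not overlap between conditions, the largest differences are given as values, since none passed the test. A first border gene on linkage group 1 from 1076490 to 1077050 had 7.61 and 7.02 TPM without vitamin C and 28.2 and 11.6 TPM with it, which differ by 1.21 on the log2(TPM + 1) scale (limma, adjusted p = 0.31, standard error 0.39). A gene at distance 5 on linkage group 10 from 1038372 to 1039331 had 0.192 and 0.674 TPM without vitamin C and 1.23 and 4.51 TPM with it. In the other direction, a gene at distance 5 on linkage group 7 from 1071471 to 1071836 had 16.3 and 22.6 TPM without vitamin C and 3.58 and 8.27 TPM with it, which differ by -1.63 (limma, adjusted p = 0.26, standard error 0.37). A first border gene on scaffold 13 from 1401677 to 1402694 stood at 9.44 and 31.2 TPM without vitamin C and 5.35 and 5.95 TPM with it. The untreated replicates of that gene differed more from each other than the lower of them did from the vitamin C libraries.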

How the data were processed

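RNA-seq of L. bicolor mycelium was used, with 2 libraries per condition, grouped by the treatment in the sample labels. By the study's methods, the authors used BBDuk for trimming, hisat2 for mapping to the V2 genome, samtools for deduplication and StringTie for gene levels. FastQC, HISAT2 and SAMtools are named in the submitters' processing notes. The deposited TPM values give a share of transcripts, and the deposited FPKM values are scaled by length and aligned bases. The deposited coverage, a signal of mean read depth over exons, is not scaled by library. How StringTie used strand is not stated in the sources, so overlapping models may share reads. Genes are given by position in V2 coordinates, since 0 of 23125 identifiers matched the RefSeq table.

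Silent genes, stretches, borders and gaps (start of one model minus end of the previous, minus 1) came from scripts in Python 3.11.15 (pandas 2.3.3, numpy 2.4.6, scipy 1.17.1, matplotlib 3.10.9). For the comparison of conditions, limma 3.58.1 (R 4.3.3, with trend) was run on log2(TPM + 1), a scale that understates changes of low genes, over 15107 genes with Benjamini-Hochberg adjustment, and the test was checked on simulated data. The members, lists and comparisons were chosen with earlier results of these data known. Genes were named by rule: the first border genes of the 5 longest stretches, the 5 highest first border genes, called members, the 3 largest non-overlapping changes per direction, the 3 largest border moves per direction, and the genes nearest the threshold. Exceptions are marked. Alternatives changed the threshold, the stretch length, the gene models, the normalization and the libraries.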

Additional observations from a re-analysis of the deposited data

How the results depend on the processing

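The median level of the first border gene moved with the settings, from 2.78 TPM to 1.94, 4.14 and 7.07 TPM at silence thresholds of 0, 0.1 and 0.5 TPM, to 4.15 and 1.54 TPM for stretches of at least 5 and at least 20 genes, and to 3.495 TPM with overlapping models left out. It was also 3.495 TPM where the second gene had to be expressed, an alternative chosen after seeing the data, and 3.36 to 3.94 TPM with 1 untreated library left out. Stretches of at least 5 and 20 genes gave 3296 and 355 border genes. The median border gap was 1165.5 bp at a threshold of 0.5 TPM and 1637 bp without overlapping models, and 85.0% of borders were unchanged at a threshold of 0. The share of first genes read away stayed between 42.0% and 46.6% under all alternatives run for it. At adjusted p under 0.05, limma called 1 border gene higher and 0 lower, against 7 and 7 among all genes tested. Without the filter the counts were 0 and 1, against 7 and 3. With quantile normalization they were 0 and 0, against 6 and 5, and without trend 0 and 0, against 5 and 3. The median change of the border genes was -0.022 and 0.055 without untreated replicates 1 and 2. It was -0.028 and 0.055 without vitamin C replicates 1 and 2.

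The replicate differences of the 2 conditions correlated at -0.26 across genes, so the replicate numbers did not pair the libraries. Some libraries of different conditions lay closer in median than replicates did. Over the border genes, vitamin C replicate 2 lay 0 from untreated replicate 1 on the log2(TPM + 1) scale. Vitamin C replicate 1 lay 0.010 from untreated replicate 2. Replicates 1 of the conditions differed by 0.083 and replicates 2 by -0.073. Within conditions replicate 2 lay 0.090 (untreated) and -0.086 (vitamin C) from replicate 1. With the replicate block, 3 border genes were higher and 5 lower, and with the numbers crossed, chosen after seeing the data, 14 were higher and 6 lower, each with 1 residual degree of freedom. Over all 15107 genes tested the counts were 43 higher and 85 lower with the block, and 100 higher and 225 lower with the numbers crossed.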
